A study of Mus musculus with 3 samples.

Results

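Small leucine-rich proteoglycans are secreted proteins of the extracellular matrix, and 9 of their genes were followed here in single cells of the developing mouse palate: Dcn, Bgn, Aspn, Lum, Fmod, Prelp, Omd, Ogn and Epyc. The genes were chosen by name, and all 9 are among the 32285 genes of the count matrices. The cells came from palatal shelves, the outgrowths of the upper jaw that fuse into the secondary palate, of wild-type C57BL/6J embryos at 3 embryonic (E) stages, E13.5, E14.5, E15.5. Each stage is 1 library pooled from 3 embryos, dissociated with TrypLE and fixed in methanol, so there are no replicates and stages could not be tested against each other. Molecules were counted by their barcodes (unique molecular identifiers, UMIs), and a level is the UMIs of a gene per 1e6 UMIs of all genes in the summed cells (CPM). Intervals are exact 95% Poisson intervals, or the matching intervals of a ratio or share, and cover only the error of counting. In stage order, total depth was 11472663, 5293977 and 8313677 UMIs, with medians of 1735, 1614 and 1699 per barcode, and any 2 of them shared at most 3 barcodes. Runs of 3 values are in stage order unless said otherwise.

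The 7917 cells kept were clustered together without the 9 genes, and clusters were named from marker lists. Mesenchymal-like, osteogenic-like and chondrogenic-like clusters together are called the mesenchymal lineage, which held 649, 1211 and 1763 cells. The E13.5 library differed in makeup: its lineage was 18.1% of cells, against 69.2% and 68.2% later, and 56.2% of its cells were neuronal-like. Within the lineage, 60.2% of the E13.5 cells lay in 1 mesenchymal-like cluster (cluster 5, with Otor among its leading genes), against 7.18% and 4.25% at the later stages. The 8 neuronal markers summed to 399.7, 506 and 297 CPM in the lineage, and 6 red cell markers, mostly haemoglobin RNA, to 9112, 9413 and 9639 CPM. The part of these differences in the stage values was not tested, other than by the recalculations given beside them.

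Proteins of this family share a core of leucine-rich repeats, and many carry chondroitin, dermatan or keratan sulfate chains. They sit on collagen fibrils, where they limit fibril thickness and spacing, and several bind growth factors of the TGF-beta family. Decorin (Dcn), biglycan (Bgn) and asporin (Aspn) form class I of the family. Lumican (Lum), fibromodulin (Fmod), PRELP (Prelp) and osteomodulin (Omd, also osteoadherin, known from bone matrix) form class II. Osteoglycin (Ogn, also mimecan) and epiphycan (Epyc, known from growth cartilage) form class III.

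The genes lie in small clusters in the genome (GRCm38). On chromosome 10, Dcn (97479609 to 97518143), Lum (97565128 to 97572703), the family gene Kera (97606879 to 97613692) and Epyc (97644068 to 97682454) follow each other on the plus strand within 203 kb, with 0 other coding genes between them. On chromosome 13, the family gene Ecm2 is followed on the plus strand by Aspn (49544443 to 49567565), Omd (49582462 to 49592822) and Ogn (49608046 to 49624501) within 119.7 kb, and the coding gene Cenpp overlaps this stretch. On chromosome 1, Prelp (133910304 to 133921414, minus strand) and Fmod (134037254 to 134048277, plus strand) lie beside the family gene Optc. Bgn is on X (73483602 to 73495933, plus strand).

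RefSeq promoter windows on GRCm38.p6 were given for 7 of the 9 genes, all but Dcn and Lum. The 250 bases before the start are shown for the 3 chromosome 13 neighbours, which hold the 2 pairs of genes found together in single cells beyond the product of their shares at both later stages, and for Epyc, whose pattern over cell types differed from theirs. Capitals mark matches to 4 letter strings. TATAAA was searched on the plus strand, and ACCACA (the core bound by RUNX factors), ACAAAG and ACAATG (strings bound by SOX factors) on both strands. The windows lie at chr13:49544193-49544442 (Aspn), chr13:49582212-49582461 (Omd), chr13:49607765-49608014 (Ogn) and chr10:97643818-97644067 (Epyc), all on the plus strand.
Aspn: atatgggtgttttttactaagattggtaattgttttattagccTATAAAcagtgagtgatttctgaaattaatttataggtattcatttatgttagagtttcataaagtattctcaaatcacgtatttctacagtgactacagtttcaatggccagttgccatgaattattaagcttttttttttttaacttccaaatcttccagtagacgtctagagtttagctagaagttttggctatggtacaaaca
Omd: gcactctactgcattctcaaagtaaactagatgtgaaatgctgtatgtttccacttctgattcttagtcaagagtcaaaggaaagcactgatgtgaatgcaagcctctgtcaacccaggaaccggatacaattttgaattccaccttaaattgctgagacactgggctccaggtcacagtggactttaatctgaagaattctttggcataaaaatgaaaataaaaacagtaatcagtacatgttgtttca
Ogn: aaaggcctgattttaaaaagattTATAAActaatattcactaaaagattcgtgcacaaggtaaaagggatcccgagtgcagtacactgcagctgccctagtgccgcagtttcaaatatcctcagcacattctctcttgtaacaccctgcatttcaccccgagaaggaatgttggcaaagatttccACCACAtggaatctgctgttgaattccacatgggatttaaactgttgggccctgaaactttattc
Epyc: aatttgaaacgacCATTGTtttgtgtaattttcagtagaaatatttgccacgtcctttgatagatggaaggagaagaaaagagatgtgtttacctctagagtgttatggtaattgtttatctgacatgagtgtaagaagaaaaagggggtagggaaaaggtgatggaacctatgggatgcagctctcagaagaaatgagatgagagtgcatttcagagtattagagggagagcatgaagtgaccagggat
TATAAA was found in the Aspn and Ogn windows, 207 and 227 bases before the start, and in 7.59% of all 32851 windows. ACCACA was found in the Ogn window, 65 bases before the start, and in 14.0% of all windows. ACAATG was found on the minus strand of the Epyc window, 237 bases before the start, and in 10.7% of all windows. The window of another RefSeq start of Epyc (chr10:97646853-97647102, not shown) held 2 matches to ACAATG and 1 to ACAAAG, a string in 16.5% of all windows. The windows of Omd, Bgn, Fmod and Prelp held none of these strings. The string TGANTCA, bound by AP-1 factors, was also searched, and was in 0 of the members' windows and 6.75% of all windows. GC content was 30% in the Aspn window, 38.4% in Omd, 39.2% in Epyc and 42% in Ogn, against a median of 52.4% over all windows. The windows not shown had 51.2% in Fmod, 55.6% in Prelp and 64.4% in Bgn, and 31.2% at the other Epyc start. These matches describe letters only.

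At E15.5 most UMIs of the 9 genes came from cells of the mesenchymal lineage. At that stage the lineage held 90.1% of all Dcn UMIs, 92.5% of Bgn, 95.1% of Aspn, 95.3% of Lum, 92.2% of Ogn and 96.2% of Omd. It held 86.5% of the Fmod UMIs, 76% of the 25 Prelp UMIs and 100% of the 33 Epyc UMIs. The lineage was 68.2% of the cells of that library, and the Prelp share was little above this. At E13.5, where lineage cells were fewer, the shares were 50.9% for Dcn, 51.8% for Ogn, 62.4% for Lum, 62.5% for Epyc, 63.2% for Bgn and 64.5% for Aspn. The rest were on few UMIs: 4 of 6 for Prelp, 2 of 10 for Omd and 1 of 4 for Fmod, and neuronal-like cells held 7 of the Omd and 2 of the Fmod UMIs. When cells were instead gated on the markers of each single cell, which puts fewer cells in the lineage, the lineage shares at E15.5 lay between 50.7% (Dcn) and 57.6% (Aspn) for 8 genes and at 32% for Prelp. The gated lineage was 683 mesenchymal-like, 181 osteogenic-like and 47 chondrogenic-like of 2584 cells. The gated share of Prelp UMIs was thus no higher than the lineage's share of cells.

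Free RNA gives stray UMIs in cells that do not make a transcript, so the share of cells with a UMI was set beside that in blood-derived and neural cells. With each cell thinned to 1500 UMIs, 36.8%, 74.5% and 79.5% of lineage cells carried at least 1 of the 9 genes (unthinned, 44.1%, 77.0% and 81.5%). In myeloid-like cells the thinned shares were 9.52%, 11.6% and 10.8% (unthinned, 6.06%, 15.6% and 18.6%), and in neuronal-like cells 4.95%, 14.6% and 10.4%. Lineage cells thus carried these RNAs several times as often as either class at every stage. Median depth before thinning was 1877, 1812 and 2013 UMIs for lineage cells and 2060, 1769 and 1661.5 for myeloid-like cells, and thinning left out 255, 490 and 656 shallower lineage cells. The share of thinned lineage cells with 2 or more of the genes was 7.87%, 42.2% and 49.7%.

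**Figure D1:**
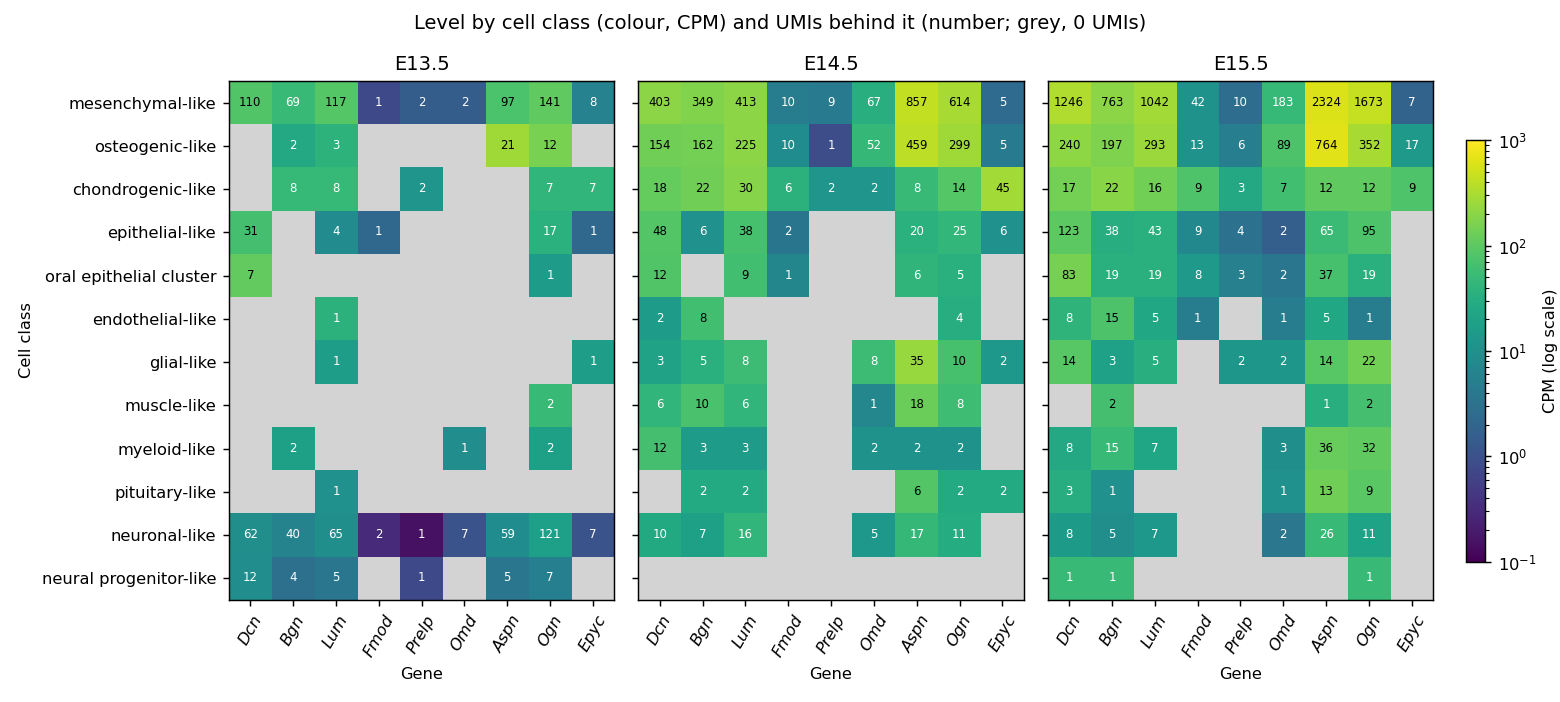
Level of the 9 genes in 12 cell groups at each stage, 1 library per stage; colour is CPM on a log scale, the number is the UMI count behind it, and grey is 0 UMIs. The oral epithelial cluster is also part of the epithelial-like class. The mesenchymal-like, osteogenic-like and chondrogenic-like rows hold most of the UMIs of each gene at E15.5, and the epithelial rows hold Dcn.

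Most of the genes were several times higher in the lineage at E14.5 and E15.5 than at E13.5. Of the 8 genes that reached 5 CPM in the higher library, 7 were at least doubled from E13.5 to E15.5, where 11.7% of all 12124 genes were, and 0 were at least halved, where 5.5% were. Their median log2 ratio, with 1 CPM added, was 2.03, beside 0.01 over all genes tested. From E13.5 to E14.5 the same 7 were at least doubled (10.1% of all genes) and 0 halved (3.51%), with a median of 1.55. From E14.5 to E15.5, 0 were doubled (1.41%) and 1, Epyc, was halved (2.02%), with a median of 0.56. Prelp stayed under 5 CPM in the lineage at each stage.

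In class I, the lineage held 110, 575 and 1503 UMIs of Dcn, or 69.9, 173 and 297 CPM. Its E15.5 level was 4.26-fold that at E13.5 (3.50 to 5.21) and 1.72-fold that at E14.5 (1.56 to 1.89). Bgn had 79, 533 and 982 UMIs, or 50.2, 161 and 194 CPM. The Bgn level at E15.5 was 3.87-fold that at E13.5 (3.08 to 4.93) and 1.21-fold that at E14.5 (1.09 to 1.35), so most of its difference lay between the first 2 libraries. Aspn had 118, 1324 and 3100 UMIs, or 74.99, 399 and 614 CPM, an 8.18-fold difference from first to last (6.81 to 9.92). For each of these 3 genes, the Poisson intervals of the libraries did not overlap.

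In class II, Lum had 128, 668 and 1351 UMIs, or 81.3, 201 and 267 CPM, 3.29-fold higher at the last stage than at the first (2.74 to 3.97). Omd had 2, 121 and 279 UMIs, or 1.27, 36.5 and 55.2 CPM, a ratio of 43.4 whose interval (11.9 to 361) is wide because of the 2 UMIs at E13.5. Fmod had 1, 26 and 64 UMIs, or 0.64, 7.84 and 12.7 CPM, a ratio of 19.9 (3.45 to 799). Omd and Fmod were thus near 0 in the E13.5 lineage and were read at both later stages. Prelp had 4, 12 and 19 UMIs, or 2.54, 3.62 and 3.76 CPM, and its ratio of 1.48 has an interval that includes 1 (0.49 to 5.98).

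In class III, Ogn had 160, 927 and 2037 UMIs, or 102, 279 and 403 CPM, a 3.96-fold difference from first to last (3.37 to 4.69). Epyc followed another course, with 15, 55 and 33 UMIs, or 9.53, 16.6 and 6.53 CPM. Its E15.5 level was 0.685-fold that at E13.5 (0.36 to 1.36) and 0.394-fold that at E14.5 (0.25 to 0.62), which was its highest library.

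**Figure D2:**
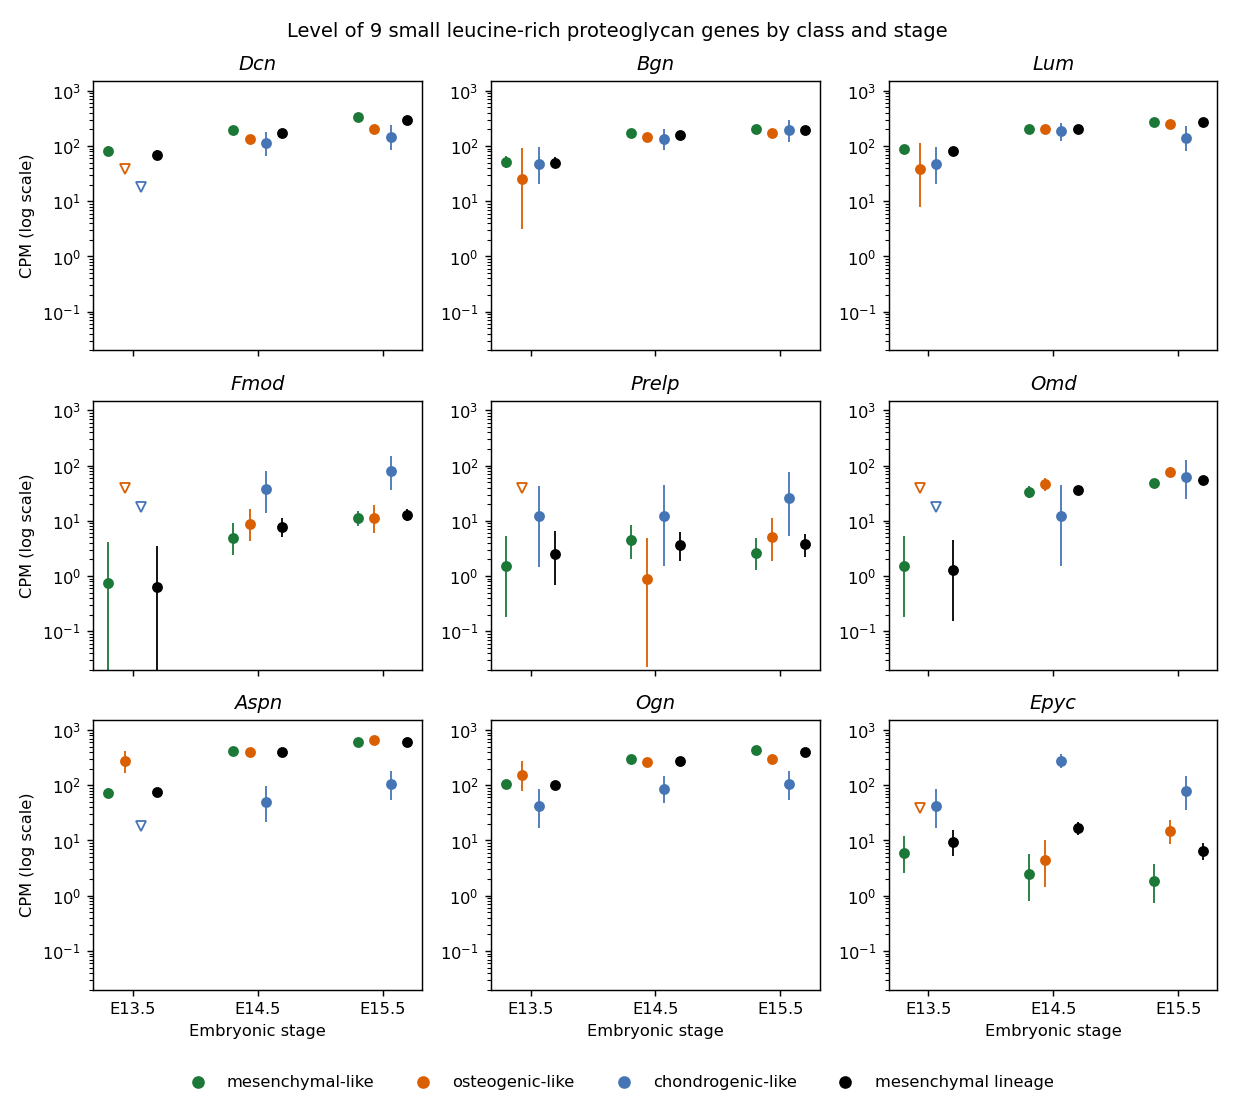
CPM on a log scale of each gene by stage in the 3 lineage classes and in the whole mesenchymal lineage, 1 library per stage; bars are exact Poisson 95% intervals, and open triangles mark 0 UMIs, placed at the level that 3 UMIs would give. The black lineage points of Dcn, Bgn, Lum, Aspn and Ogn lie higher at each later stage, while the lineage level of Epyc is highest at E14.5 (16.6 CPM).

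The E13.5 lineage also held less RNA of the mesenchymal markers that define it. The 10 markers summed to 2636, 8263 and 9411 CPM, of which Col1a1, Col1a2 and Col3a1 made up 1493, 6659 and 7636 CPM. The other 7, Pdgfra and transcription factor genes, summed to 1143, 1605 and 1775 CPM, a 1.55-fold difference from first to last beside 5.11-fold for the collagens. Leaving out cluster 5, a recalculation added after the data were seen, left 7 of 8 genes doubled from E13.5 to E15.5, with a median log2 ratio of 2.49. Keeping only lineage cells with no UMI of a neuronal marker (367, 819 and 1242 cells), also added later, left 7 of 8 doubled with a median of 2.10. The share of all genes doubled was not computed for these recalculations.

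Stage differences were also present inside single clusters, though not for each gene. In cluster 5, Dcn stood at 83.9, 209 and 368 CPM (75, 38 and 53 UMIs) and Bgn at 52.6, 109.8 and 264 CPM. Aspn did not follow them there: it stood at 58.1, 98.8 and 41.7 CPM (52, 18 and 6 UMIs), with overlapping intervals at the first and last stage. In cluster 3, a mesenchymal-like cluster with RNA of the bone matrix gene Ibsp, Aspn stood at 190.3, 681 and 923 CPM and Ogn at 127, 439 and 728 CPM. In cluster 11, which had the most RNA of the proliferation gene Mki67 of all lineage clusters, Aspn stood at 61.7, 328 and 402 CPM and Ogn at 28.8, 142 and 222 CPM. With the mix of lineage clusters held fixed, which can use 6 of the 8, the log2 ratio of Aspn from first to last stage was 1.63 in place of 3.02, and that of Omd 3.18 in place of 4.63. The same setting gave Dcn 2.19 in place of 2.07 and Bgn 2.45 in place of 1.93. Epyc was 1.11 there in place of -0.48, the opposite direction. This setting also leaves out 2 clusters, and the cause of these differences was not tested.

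The lineage clusters differed in the levels of the genes, with the 3 libraries pooled. Cluster 3 had the highest level of Aspn (782 CPM, 735 to 831) and of Ogn (582, 542 to 624). Cluster 4, with Cntn6 and the transcription factor gene Tfap2b among its leading genes, had the highest Lum (318, 287 to 352) and Omd (87.5, 71.3 to 106), and its Aspn was also high (721 CPM). Dcn was at 313 CPM in cluster 3, 290.2 in cluster 22 and 288 in cluster 4, which did not differ beyond their intervals. Cluster 10, led by Pgm5, had Bgn at 220.1 CPM and Ogn at 465 CPM but little Omd (17.1). Cluster 22, led by Cdh20, paired high Dcn and Aspn (612 CPM) with low Lum (138, 114 to 166) and Omd (11.02). Kera, which encodes the class II protein keratocan and lies next to Lum, stood at 84.5 CPM in cluster 22 and at 0 to 14.3 CPM in the other lineage clusters. Ogn was lowest of the mesenchymal-like clusters in clusters 11 (151 CPM) and 5 (156 CPM), and Aspn in cluster 5 (62.3, 49.1 to 77.9). The clusters hold the stages in unlike shares (cluster 5 is mostly E13.5, 391 of 553 cells), and some orders differed within 1 library. Bgn was highest in cluster 10 at E14.5 (249.8 CPM, 204 to 303) but in cluster 5 at E15.5 (264, 187 to 362), where cluster 10 had 218 (192 to 247). Lum was highest in cluster 10 at E14.5 (301, 250.3 to 359) and in cluster 4 at E15.5 (365, 324 to 409.95). Ogn was as high in cluster 10 (443) as in cluster 3 (439) at E14.5, and Dcn was highest in cluster 22 at E14.5 (294) and in cluster 3 at E15.5 (441). Aspn was highest in cluster 3 and Omd in cluster 4 in both later libraries, with intervals that overlapped those of the next cluster. All clusters come from the same cells, so these levels are descriptions.

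**Figure D3:**
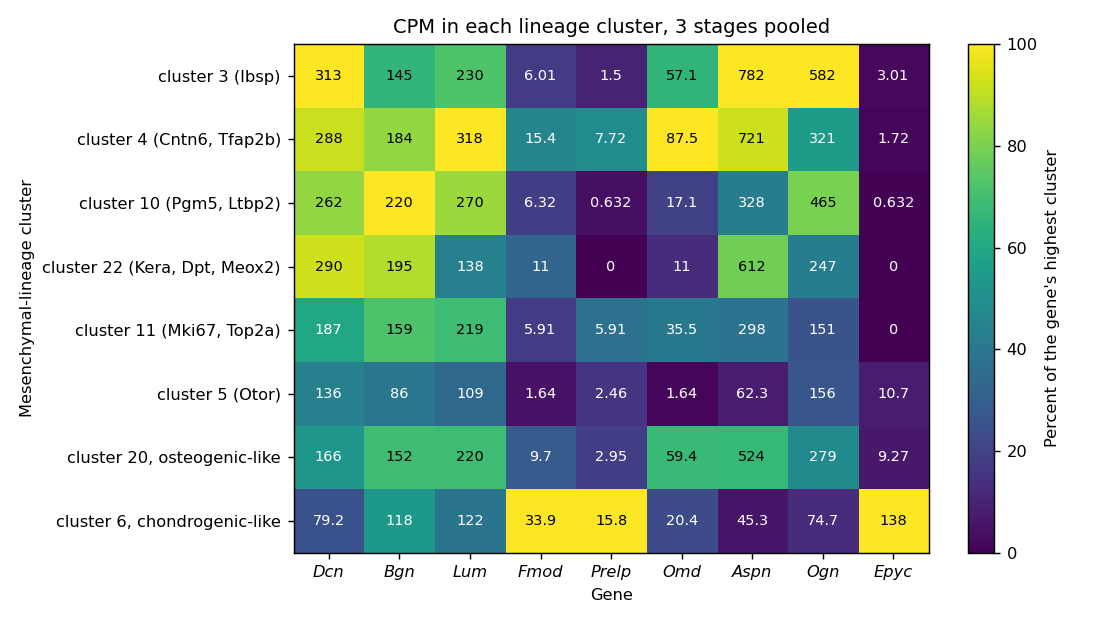
CPM of the 9 genes in the 8 lineage clusters with the 3 stages pooled; numbers are CPM, and colour is the percent of that gene's highest cluster. In these pooled values Aspn and Ogn are highest in cluster 3, Lum and Omd in cluster 4, Bgn in cluster 10, and Fmod, Prelp and Epyc in the chondrogenic-like cluster.

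Osteogenic-like cells were set beside mesenchymal-like cells to ask which of the genes go with early bone. At E15.5 (328 and 1405 cells) 1 of 9 genes was at least doubled, where 7.01% of all genes were, and 0 were at least halved (6.15%). Omd stood at 76.3 CPM in osteogenic-like cells (89 UMIs, 61.3 to 93.9) and 48.5 CPM in mesenchymal-like cells (183 UMIs, 41.7 to 56.1), a ratio of 1.57 (1.21 to 2.04). Dcn went the other way, with 206 CPM (240 UMIs) against 330.3 CPM (1246 UMIs), a ratio of 0.623 (0.54 to 0.72). Ogn (0.681, 0.61 to 0.76) and Bgn (0.835, 0.71 to 0.98) were also lower, while the intervals of Lum (0.91, 0.80 to 1.04) and Aspn (1.06, 0.98 to 1.15) included 1. The doubled gene was Epyc, at 14.6 CPM against 1.86 CPM on 17 and 7 UMIs (ratio 7.86, 3.10 to 22.4). Prelp stood at 5.15 CPM against 2.65 CPM on 6 and 10 UMIs, and Fmod at 11.2 CPM against 11.1 CPM.

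At E14.5 (257 and 890 cells) 0 of 7 measured genes were doubled (8.73% of all genes) and 0 halved (4.45%), and Dcn was again lower, with a ratio of 0.686 (0.57 to 0.83). Omd had a ratio of 1.39 there, with an interval that includes 1 (0.95 to 2.03). At E13.5 the osteogenic-like class had only 21 cells. It held 21 Aspn UMIs (270.8 CPM against 72.9, ratio 3.71, 2.20 to 6.00) and 0 Dcn UMIs, at least 2.14-fold lower than in mesenchymal-like cells, with the level of 3 UMIs as the floor. There 1 of 6 measured genes was doubled (18.7% of all genes) and 3 halved (26.8%), the latter on 0 to 3 UMIs.

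The bone contrast moved with where the classes were divided. Ibsp stood at 405 CPM in the osteogenic-like cluster but at 528 CPM in mesenchymal-like cluster 3. Runx2, the transcription factor gene of the bone lineage, stood at 1978 CPM in the osteogenic-like cluster and at 1622 CPM in mesenchymal-like cluster 4. In 7 other ways of choosing the cells (listed with the limits at the end), Omd was at least doubled in osteogenic-like cells at E15.5 in all 7, with ratios from 2.11 to 4.04 and every interval above 1. Among them is the clustering with the members kept, where 5 of the 9 were among the variable genes. Its classes were drawn partly from the values compared here, so it is not an independent check. Aspn had ratios from 1.38 to 2.02 in these 7, again with every interval above 1, in place of 1.06. Dcn had ratios from 0.334 to 1.05, was at least halved in 3 of the 7 and had its interval below 1 in 6. Ogn had no settled direction: its ratios ran from 0.719 to 1.495, with the interval below 1 in 2 of the 7 and above 1 in 2. Bgn ran from 0.804 to 0.958, with the interval below 1 in 3, and Lum from 0.926 to 1.36, with the interval above 1 in 1. Fmod ran from 0.832 to 1.70, with every interval including 1. Prelp, in the 6 with a value, ran from 0.94 to 12.8, doubled in 4 and with the interval above 1 in 2. Gates on the markers of each single cell, which use no clusters, gave 181 osteogenic-like cells at E15.5 and a ratio of 2.30 for Omd (1.66 to 3.20). Epyc was doubled in 6 of the 7, and was at 0.231 on 1 UMI in the marker-gated cells. At E14.5 the same 7 ways gave Omd from 1.87 to 4.27, doubled in 6 and with every interval above 1, where the clusters used here gave 0 doubled genes. Aspn ran from 1.16 to 2.33 at E14.5 (doubled in 2), Fmod from 1.501 to 6.98 (doubled in 4), Ogn from 0.807 to 1.54 (interval above 1 in 4, below 1 in 2) and Dcn from 0.313 to 0.768.

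**Figure D4:**
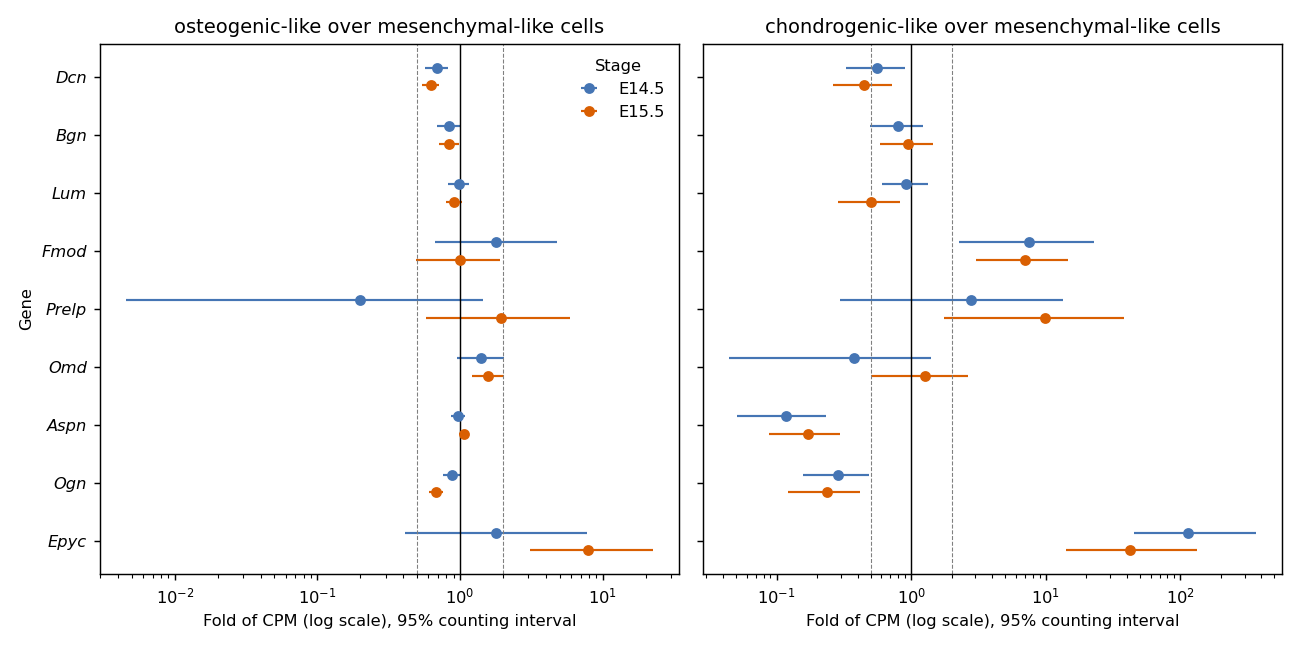
Fold of CPM in osteogenic-like (left) and chondrogenic-like (right) over mesenchymal-like cells at E14.5 and E15.5 on a log scale, 1 library per stage; bars are 95% intervals from the counts, the solid line marks equal levels and the dashed lines a fold of 2 either way. Dcn lies below equal levels in both panels at both stages, while in chondrogenic-like cells Epyc and Fmod lie above them and Aspn and Ogn below.

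Chondrogenic-like cells held some of the genes at levels unlike those of mesenchymal-like cells. At E14.5 (64 cells, beside 890 mesenchymal-like cells) 3 of 9 genes were at least doubled, where 16.1% of all genes were, and 3 at least halved (20.6%). Epyc was at 279 CPM (45 UMIs, 204 to 374) against 2.47 CPM (5 UMIs), a ratio of 113 (45.1 to 365). Fmod was at 37.2 CPM on 6 UMIs against 4.93 CPM, a ratio of 7.54 (2.25 to 22.9). Prelp was at 12.4 CPM on 2 UMIs, with a ratio of 2.79 whose interval includes 1 (0.29 to 13.499). Aspn went the other way, at 49.6 CPM (8 UMIs) against 423 CPM, a ratio of 0.117 (0.05 to 0.23). Ogn was at 86.8 CPM (14 UMIs) against 303 CPM, a ratio of 0.287 (0.16 to 0.48). Omd had 2 UMIs and a ratio of 0.375 (0.04 to 1.41), and was halved in only 3 of the 7 other ways of choosing cells (0.295 to 0.985). Dcn was lower with a ratio of 0.562 (0.33 to 0.90), while the intervals of Lum (0.913, 0.61 to 1.32) and Bgn (0.793, 0.49 to 1.22) included 1.

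At the other stages Epyc was again higher and Dcn, Aspn and Ogn lower. At E15.5 (30 cells) Epyc (9 UMIs, ratio 42.3, 14.0 to 134), Fmod (9 UMIs, 7.05, 3.02 to 14.7) and Prelp (3 UMIs, 9.87, 1.74 to 38.3) were at least doubled, 3 of 9 where 15.4% of all genes were. Aspn (0.170, 0.09 to 0.30), Ogn (0.236, 0.12 to 0.41) and Dcn (0.449, 0.26 to 0.72) were at least halved, 3 of 9 where 23% of all genes were. In the 7 other ways of choosing cells, Aspn ran from 0.18 to 0.592 and Ogn from 0.174 to 0.702 (each halved in 6), and Dcn from 0.44 to 0.764 (halved in 5), with the highest value of each from the marker gates. Omd, lower at E14.5 on 2 UMIs, had 7 UMIs here and a ratio of 1.26 (0.50 to 2.64), with values from 1.27 to 2.95 in the 7 other ways of choosing cells. Lum stood at 139 CPM here (16 UMIs, 79.7 to 227) against 276 CPM (260 to 294). Its ratio ran from 0.50 to 1.10 in the 7, with the interval below 1 in 6. Bgn stood at 192 CPM against 202 CPM, and its interval included 1 in all 7. At E13.5 (58 cells) 2 of 7 measured genes were doubled (15.4%), Epyc on 7 UMIs (ratio 7.01, 2.16 to 22.1) and Prelp on 2, and 3 were halved (20.6%). Dcn and Aspn had 0 UMIs there, at least 4.58-fold and 4.03-fold lower than in mesenchymal-like cells by the same floor. Over the 7 other ways of choosing the cells, the ratio at E14.5 ran from 4.65 to 10.6 for Fmod and from 0.108 to 0.413 for Aspn, and for Epyc, in the 6 with a value, from 70.4 to 205.

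The level of Epyc within classes differed between the 2 later libraries. In chondrogenic-like cells it was 78.5 CPM at E15.5 against 279 CPM at E14.5, a ratio of 0.281 (0.12 to 0.58), where 27.1% of all genes were at least halved between these small groups. In osteogenic-like cells it was 14.6 CPM against 4.43 CPM, a ratio of 3.29 (1.17 to 11.4), where 4.31% of all genes were at least doubled. The summed chondrogenic markers of the whole lineage stood at 1510 CPM at E13.5, 1467 CPM at E14.5 and 481 CPM at E15.5, and their part in the lineage level of Epyc was not tested.

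Dcn RNA was also read in epithelium. A cluster with the keratin genes Krt13, Krt5 and Krt14 among its leading genes, called the oral epithelial cluster here, had 7, 12 and 83 Dcn UMIs in 18, 54 and 172 cells, or 109, 82.0 and 154 CPM. At E15.5 these 83 UMIs came from 35 cells, while Lum had 19 UMIs in 12 cells. There were thus 4.37 Dcn UMIs per Lum UMI (2.63 to 7.62), beside 1.11 in the lineage (1.03 to 1.198). At E14.5 the same cluster had 1.33 (12 and 9 UMIs, 0.52 to 3.58), an interval that includes the lineage ratio of 0.861, and at E13.5 it had 7 Dcn and 0 Lum UMIs. After thinning, 13.9% of the oral epithelial cells carried Dcn at E15.5 (8.17 to 21.6; unthinned, 20.3%), against 4.62% of myeloid-like cells (0.96 to 12.9; unthinned, 3.39%) and 25.6% of lineage cells (unthinned, 33.0%). The thinned intervals of oral epithelial and myeloid-like cells overlap, while the unthinned ones (14.6 to 27.1 and 0.93 to 8.45) do not. In neuronal-like cells at E15.5 Dcn was in 0 of 115 thinned cells (0 to 3.16; unthinned, 1.72%), below the oral epithelial interval. Median depths at E15.5 were 1998.5 UMIs in oral epithelial, 1661.5 in myeloid-like, 2212.5 in neuronal-like and 2013 in lineage cells. At E14.5 the thinned share was 7.5% in oral epithelial cells (1.57 to 20.4) and 7.87% in neuronal-like cells (3.22 to 15.54). In myeloid-like cells it was 4.65% (0.57 to 15.8). These intervals overlap, as do the unthinned ones (shares of 14.8%, 5.26% and 6.49%). At E13.5 the oral epithelial and neuronal-like intervals overlapped after thinning (1.38 to 34.7 and 0.47 to 1.57). Unthinned, they did not (3.58 to 41.4 and 1.30 to 2.52). In the order of levels at E15.5, Dcn was highest in mesenchymal-like cells (330.3 CPM), then osteogenic-like (206), oral epithelial (154) and chondrogenic-like cells (148). Of these, mesenchymal-like cells lay apart from the rest, and the intervals of the other 3 overlapped.

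The mesenchymal markers in epithelial cells were measured beside Dcn. In mesenchymal-like cells there were 3.01, 2.39 and 3.46 Dcn UMIs per 100 UMIs of the 10 markers. In the oral epithelial cluster at E15.5 there were 10.4 (8.19 to 13.1), while Lum (2.38) and Bgn (2.38) were near their mesenchymal-like ratios of 2.90 and 2.12, and Aspn (4.64) and Ogn (2.38) below theirs of 6.46 and 4.65. Dcn was not alone in this: Fmod stood there at 1.00 per 100 on 8 UMIs (0.43 to 1.98), beside 0.117 (0.08 to 0.16) in mesenchymal-like cells, and Prelp at 0.376 on 3 UMIs (0.08 to 1.10), beside 0.028. At E14.5 the oral epithelial cluster had 8.57 Dcn (4.33 to 15.45) and 6.43 Lum (2.88 to 12.6) per 100, beside 2.39 and 2.44. In the other epithelial-like clusters, Dcn stood at 43.6 per 100 in the first library (25.8 to 71.7), 14.3 in the next (9.78 to 20.3) and 6.21 in the last (4.40 to 8.55). Ogn was above its mesenchymal-like ratio in those clusters in all 3 libraries, at 29.1 (15.6 to 51.5), 7.94 (4.77 to 12.5) and 11.8 (9.18 to 14.99) per 100, beside 3.85, 3.63 and 4.65. At E14.5 so were Lum, at 11.5 (7.55 to 16.9) beside 2.44, and Epyc, at 2.38 (0.87 to 5.26) on 6 UMIs from 3 cells, beside 0.030 (0.0096 to 0.069). The 11 cells of these clusters with Dcn at E13.5 held mesenchymal markers at 178 CPM (76.7 to 350.1), beside 130.4 CPM (95.8 to 173) in the 124 cells without. At E14.5, cells of these clusters with Dcn held markers at 1359 CPM and cells without at 389 CPM, with median depths of 5853 and 2078 UMIs. At E15.5, oral epithelial cells with Dcn held more mesenchymal markers than cells without (1908 against 1305 CPM) and had more UMIs (medians of 3429 and 1822). The part of markers and depth in the Dcn values was not tested. In neuronal-like cells at E13.5, 4 of the genes stood near their mesenchymal-like ratio to the markers, with 2.58 Dcn (1.97 to 3.32), 2.70 Lum, 1.66 Bgn and 2.46 Aspn per 100, beside 3.01, 3.20, 1.89 and 2.65. Ogn was higher there, at 5.04 (4.16 to 6.05) beside 3.85 (3.23 to 4.56), and Omd was at 0.291 on 7 UMIs beside 0.055 on 2.

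Bgn was read in several endothelial-like cells, with 8 UMIs in 5 cells at E14.5 and 15 UMIs in 12 of 63 cells at E15.5 (62.2 and 75.3 CPM). At E15.5 the other 8 genes were each found in 0 to 3 endothelial-like cells, while at E14.5 Ogn was in 4 of 49 and 50% of the Bgn UMIs were in 1 cell. After thinning, 15% of endothelial-like cells carried Bgn at E15.5 (5.71 to 29.8; unthinned, 19.0%), against 3.08% of myeloid-like cells (0.37 to 10.7; unthinned, 5.08%). In neuronal-like cells it was 1.74% (0.21 to 6.14; unthinned, 1.15%, 0.14 to 4.09). The endothelial-like interval overlapped both thinned intervals and the unthinned myeloid-like one, and lay apart from the unthinned neuronal-like one (10.2 to 30.9 against 0.14 to 4.09). The median depth was 2003 UMIs in endothelial-like, 1661.5 in myeloid-like and 2212.5 in neuronal-like cells. Per 100 UMIs of the mesenchymal markers, endothelial-like cells had 14.3 Bgn UMIs (5.88 to 30.1) and then 9.04 (4.95 to 15.3) in the later libraries, beside 2.07 and 2.12 in mesenchymal-like cells. Several other levels in small classes came from few cells. Of 32 Ogn UMIs in myeloid-like cells at E15.5, 71.9% were in 1 cell, and of 36 Aspn UMIs there 50% were. All 13 Aspn UMIs of the pituitary-like class at E15.5 came from 1 cell, and the 35 of the glial-like class at E14.5 from 7 cells. Such values are not read as levels of a class.

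Co-detection was taken as the number of thinned lineage cells with both of 2 genes, beside the number that the product of their shares gives. At E15.5 (1107 cells) 20 pairs had a product of at least 5 cells. Of these, 6 were above it with intervals that left out 1, while 0 were below. How often pairs of other genes lie above their product was not computed. These counts of pairs, and those given below for other cells and stages, thus have no background. Aspn and Omd, neighbours on chromosome 13, were together in 58 cells where the product gives 34.8, a ratio of 1.67 (1.27 to 2.14). Ogn and Aspn, from the same locus, were together in 225 cells where the product gives 164 (1.37, 1.21 to 1.54). Dcn and Lum, neighbours on chromosome 10, were together in 109 cells where the product gives 77.7 (1.40, 1.16 to 1.67). Pairs from different chromosomes were also above: Lum with Omd (36 cells, 1.58, 1.11 to 2.17), Dcn with Ogn (128 cells, 1.28, 1.08 to 1.50) and Lum with Ogn (133 cells, 1.24, 1.04 to 1.45). Ogn and Omd, though at 1 locus, had an interval that includes 1 (1.19, 0.83 to 1.65), as had Dcn and Omd (19 cells, 0.895, 0.54 to 1.39).

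At E14.5 (721 cells) 2 of 16 pairs were above, and both had also been above at E15.5. Aspn and Omd were together in 24 cells where the product gives 10.3 (2.34, 1.51 to 3.45), so 24 of the 28 cells with Omd also held Aspn. Ogn and Aspn were together in 107 cells where the product gives 76.2 (1.40, 1.17 to 1.67). At E13.5 only 1 pair reached a product of 5 cells. A product over the whole lineage pools classes of unlike levels, so pairs were also counted within classes. This does not remove the pooling, since the mesenchymal-like class itself holds 6 clusters of unlike levels (Aspn from 62.3 to 782 CPM). Within mesenchymal-like cells 2 of 12 pairs were above at E14.5 and 6 of 17 at E15.5, and within osteogenic-like cells 0 of 9 and 1 of 14, with 0 below in any of these. Chondrogenic-like cells were too few for any pair.

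**Figure D5:**
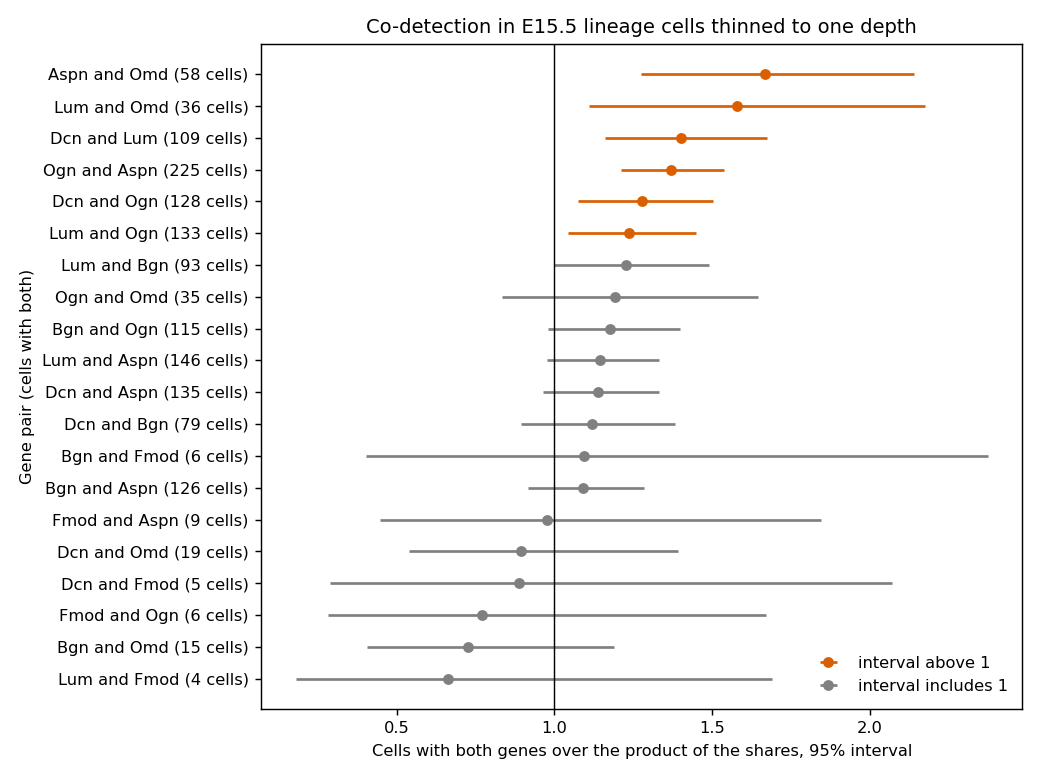
Number of E15.5 lineage cells with both genes of a pair over the product of their shares, after thinning each cell to 1500 UMIs (1107 cells); bars are 95% intervals from the count of cells with both genes. The 6 pairs in orange lie above 1 with their intervals, from Aspn with Omd at 1.67 to Lum with Ogn at 1.24, and no interval lies wholly below 1.

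The genes most like each member were found by Pearson correlation of log2(CPM + 1) over 28 combinations of class and stage with at least 20 cells, among 9491 genes. The points share libraries and differ in depth, so the values are descriptions. Col1a1, Col2a1, Acan and Col11a2 were also among the markers from which the classes were named. Any gene high in the mesenchymal-like or chondrogenic-like class would thus correlate with them. Ogn was most like the collagen genes Col6a3 (0.91) and Col1a1 (0.87), then Alx1 (0.80), and Aspn most like Col1a1 (0.87), the elastin gene Eln (0.83) and Flnc (0.82). Dcn was most like Lox (0.85), whose enzyme cross-links collagen, Pcsk6 (0.85) and Abi3bp (0.83). Lum was most like Palld (0.87), Ltbp3 (0.86), whose protein holds latent TGF-beta, and the collagen receptor gene Ddr2 (0.84). Bgn was most like Colec12 (0.91), Cped1 (0.88) and Anxa6 (0.87). Omd was most like Fcgrt (0.78), Eln (0.76) and Fam129a (0.76), and Fmod most like Myoz3 (0.81), C1qtnf3 (0.77) and Nfat5 (0.74). Epyc was most like the cartilage genes Col2a1 (0.79), Snorc (0.77) and Cytl1 (0.76). Prelp, at no more than 26.2 CPM in any of the 28, was most like Acan (0.83), Col11a2 (0.82) and Itga10 (0.81), the first 2 also cartilage genes. Among the members the closest pair was Ogn and Aspn (0.76), while Epyc ran from 0.07 with Dcn and 0.09 with Aspn to 0.53 with Lum, 0.54 with Fmod and 0.55 with Prelp.

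The collagens on which these proteins sit were also higher at the later stages. All 10 listed collagen genes were at least doubled in the lineage from E13.5 to E15.5, where 11.7% of all genes were, with a median log2 ratio of 1.85. Col1a1 went from 454 to 3476 CPM (2.93) and Col6a3 from 76.9 to 384 CPM (2.31), while the smallest ratios were 1.61 for Col5a2 and 1.41 for Col14a1. Of 8 other genes of the family, 4 were measured, with a median of 1.03. Kera went from 3 to 79 UMIs (1.91 to 15.6 CPM) and Podn, the podocan gene, from 4 to 54 UMIs (2.54 to 10.7 CPM), both at least doubled (11.7% of all genes). Chad, which encodes the cartilage protein chondroadherin, was at least halved (5.5% of all genes), from 11 to 7 UMIs (6.99 to 1.39 CPM), and Tsku had a log2 ratio of 0.33. In chondrogenic-like cells Chad was not lower at the last stage, at 48.2, 43.4 and 61.0 CPM on 8, 7 and 7 UMIs. Those cells were 8.94% of the lineage at E13.5 and 1.70% at E15.5, and the part of this was not tested.

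The enzymes that build the sugar chains differed less between stages. Of 24 listed, 21 were measured, 3 were at least doubled and 0 halved, with a median log2 ratio of 0.31. A share of 3 in 21 is near the 11.7% of all genes that were doubled, and 5.5% of all genes were halved. Chsy3, of a chondroitin synthase, went from 149.98 to 427 CPM (1.50) and Ust, of a sulfotransferase, from 108 to 279 CPM (1.36), while the linkage enzyme genes B3gat3 (-0.24) and B4galt7 (-0.25) had the smallest ratios. Of 14 measured genes of matrix proteinases and their helpers and inhibitors, 3 were doubled and 0 halved (11.7% and 5.5% of all genes), with a median of 0.78. Mmp14 (1.32) and Pcolce (1.18), whose protein aids procollagen cleavage, had the largest ratios, and Adamts9 (0.20) and Pcolce2 (-0.69) the smallest. Of 10 measured growth factors, receptors and other partners, 3 were doubled and 1 halved (11.7% and 5.5% of all genes), with a median of 0.42, the largest for Met (2.12) and Ccn4 (1.06) and the smallest for Egfr (0.04) and Erbb4 (-1.55). Of 8 measured tendon genes, 4 were doubled and 1 halved (11.7% and 5.5% of all genes), with a median of 0.99. Tnmd (2.57, from 2 to 63 UMIs) and Kera (2.52) had the largest ratios, while Thbs4 had 0.23 and Scx, the transcription factor gene of tendon, went from 21 to 13 UMIs (-2.01).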

How the data were processed

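Cells of palatal shelves were captured as 1 library per stage. The values deposited for each library are whole-number UMI counts, not normalized, and the submitters' processing notes name Cell Ranger 6.1.2 and mm10; which end of the RNA was read is not given in the sources used here. Cells with at least 500 genes and at most 20% mitochondrial UMIs were kept. A doublet caller's automatic threshold marked only 0.0617% of cells and had not worked, so the highest doublet scores were left out at 0.8% per 1000 barcodes, 190 cells in all, leaving 7917 of 9428. After scaling each cell to 10000 and taking logs, 2000 variable genes without the 9 members gave 30 principal components, 15 neighbours and Leiden clusters at resolution 1 (scanpy 1.11.5, igraph 0.11.9). The 24 clusters were named from 17 marker lists by the share of markers at 20 CPM or more, at least 2 times their lower quartile and no lower than their mean over clusters, with at least 3 required; a list with more markers among the cluster's 10 leading genes came first. The order of these rules, and exceptions for pituitary and red cell markers, were settled while clusters were named. Summed UMIs gave CPM, and log2 ratios had 1 CPM added. A gene was called doubled or halved at a fold of 2 with at least 5 CPM in the higher group. No p-values were computed, since each stage has 1 library. Co-detection used cells thinned to 1500 UMIs (seed 0). The code for calls and ratios was run on simulated independent Poisson counts. Such counts check the code only and hold no spread between cells or libraries. All 9 members are named, with the 3 genes most correlated with each and, of each other list, the 2 largest and 2 smallest ratios; members and lists were chosen with earlier results of these data known. Alternatives changed the cell filter, doublets, clustering, gates, cluster mix, pseudocount, minimum level and thinned depth.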

Additional observations from a re-analysis of the deposited data

Results flagged for a closer look

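Between E14.5 and E15.5, Epyc had a log2 ratio of 1.521 in osteogenic-like cells (5 and 17 UMIs) and of -1.82 in chondrogenic-like cells (45 and 9 UMIs). It drew notice because the single libraries moved in opposite directions in the 2 classes. The difference between the classes was not tested, since each stage has 1 library.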

How the results depend on the processing

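The count of genes doubled in the lineage from E13.5 to E15.5 was 7 or 8 under all 16 alternatives, and that in chondrogenic-like cells at E14.5 was 2 or 3 under all 10. The count in osteogenic-like cells at E15.5, 1 as reported and with gates on single cells, was 4 with at least 1000 genes per cell, 3 at resolution 0.5 and with the members kept in the clustering, and 2 with no doublets left out, at resolution 2 and with each library clustered alone. These 6 settings and the gates are the 7 other ways of choosing cells, and each of them held Omd among the doubled genes. Shares of all genes doubled were computed only for the settings as reported, so counts under the alternatives have no such background. With the members kept in the clustering, 5 of the 9 were among the variable genes, so those classes drew partly on the members. The median log2 ratio in the lineage, 2.03, was 2.81 with each library clustered alone, 3.34 over all cells of a library and 2.49 without cluster 5, and lay between 1.83 and 2.26 otherwise. The co-detection ratio of Dcn and Lum, 1.40, was 1.70 with cells thinned to 1000 UMIs and 1.24 at 2500. The cause of these differences was not tested. Leaving out cluster 5 and leaving out cells with neuronal marker UMIs were chosen after seeing the data. No paired analysis was possible because each stage has 1 library. At E13.5, 1 UMI is worth 0.635 CPM in the lineage, so levels below 1.91 CPM rest on fewer than 3 UMIs. Embryo, library and stage cannot be told apart.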
